A study of Arabidopsis thaliana with 12 samples.

Results

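The stress protection genes AT3G17520, AT3G02480, M17 (AT2G41260) and COR15A (AT2G42540), were followed across wild-type Arabidopsis thaliana seedlings and 3 mutants with reduced nitric oxide (NO). They were listed by name, with earlier results of these data known, and they make up 4 of the 13355 genes that were paired alone with a probe set of the Affymetrix ATH1 array. All 4 passed a filter on dim genes, which left 7034 genes to be tested. Seedlings of the accession Col-0 were compared with nia1nia2, which is mutated in both nitrate reductase genes, with noa1-2, a mutant allele of NITRIC OXIDE ASSOCIATED1, and with nia1nia2noa1-2, in which all 3 genes are mutated. All mutants were in the Col-0 background. Whole seedlings were grown for 15 days on MS medium with 1% sucrose under 16 h of light and 8 h of dark, were past the transition to flowering, and were collected 5 h after dawn. No plant was treated with ABA or cold, so the name of the group, ABA-responsive LEA and cold-protective genes, rests on earlier knowledge and could not be checked in these samples. Each genotype was measured in 3 biological replicates, numbered 1 to 3 but 2 to 4 in nia1nia2, with 1 array each.

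Late embryogenesis abundant (LEA) proteins are small, hydrophilic and mostly unordered proteins. They accumulate in seeds as these dry, and in leaves and roots when cells lose water through drought, salt or freezing, where they protect membranes and other proteins. Abscisic acid (ABA) induces many of their genes through bZIP factors that bind ABA response elements, whereas cold induces a subset through the CBF factors. AT3G17520, AT3G02480 and COR15A belong to the LEA_4 class, and M17 belongs to the small AtM class. AT3G02480 is widely used as a marker of ABA and drought. COR15A is imported into the chloroplast, where it stabilizes membranes during freezing.

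The intensities differed little between arrays as a whole, with array medians of 76.1 to 86.8 on the linear scale. The nia1nia2 replicates spread more widely than the others. They correlated at 0.932 to 0.968 over the tested genes, against 0.981 to 0.994 in the other genotypes, and the median standard deviation of a tested gene was 0.26 in nia1nia2 and 0.11 to 0.12 elsewhere. NIA1, NIA2 and NOA1 are not named in the probe table used here, so the labels could not be checked against the mutated genes. RCA, the Rubisco activase of leaves, and PYK10, an abundant β-glucosidase of roots and seedlings, had means of 13.45 to 13.86 and of 12.67 to 12.86 on the log2 scale, whereas the seed markers CRU2 (a storage protein) and OLEO3 (an oil body protein) stayed between 4.08 and 4.30 in all 4 genotypes. These are bulk samples of whole seedlings, in which fewer cells of a type and less RNA per cell cannot be told apart.

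AT3G17520 and AT3G02480 rose strongly wherever the nitrate reductase genes were mutated, M17 rose in nia1nia2noa1-2 alone among the 3 mutants, and COR15A passed the test in no mutant against Col-0. In limma's test on the log2 scale, adjusted by Benjamini-Hochberg over all 7034 genes with a threshold of 0.05, 2 of the 4 genes were raised in nia1nia2, where 16.4% of all tested genes were raised and 26.6% lowered. In noa1-2, 0 of the 4 passed by limma, as was also the case at an unadjusted p under 0.05 and by the methods' t-test, with a background of 5.00% raised and 4.08% lowered. In nia1nia2noa1-2, 3 of the 4 were raised, with a background of 10.6% raised and 11.3% lowered. No member was lowered in any of the 7 comparisons made. The median log2 fold change of the 4 genes was 1.55 in nia1nia2, -0.09 in noa1-2 and 2.54 in nia1nia2noa1-2, beside medians of -0.10, -0.03 and -0.03 over all tested genes. The 3 comparisons share the Col-0 arrays. After adjustment of the methods' t-test, which uses the spread of each gene alone, the calls of AT3G17520 and AT3G02480 in nia1nia2 and of M17 in nia1nia2noa1-2 were lost (adjusted p = 0.12, 0.066 and 0.10). That test called 370 of the 7034 genes raised in nia1nia2 and 660 in nia1nia2noa1-2, where limma called 1152 and 748. A gene was tested where its mean log2 intensity was at least 6 in at least 1 genotype, the floor the study itself used against noise. AT3G17520 reached this floor only in nia1nia2 and nia1nia2noa1-2, and M17 only in nia1nia2noa1-2, so that these genes entered the test through the genotypes in which they were high and the counts above carry no more than a description of 4 genes.

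**Figure D1:**
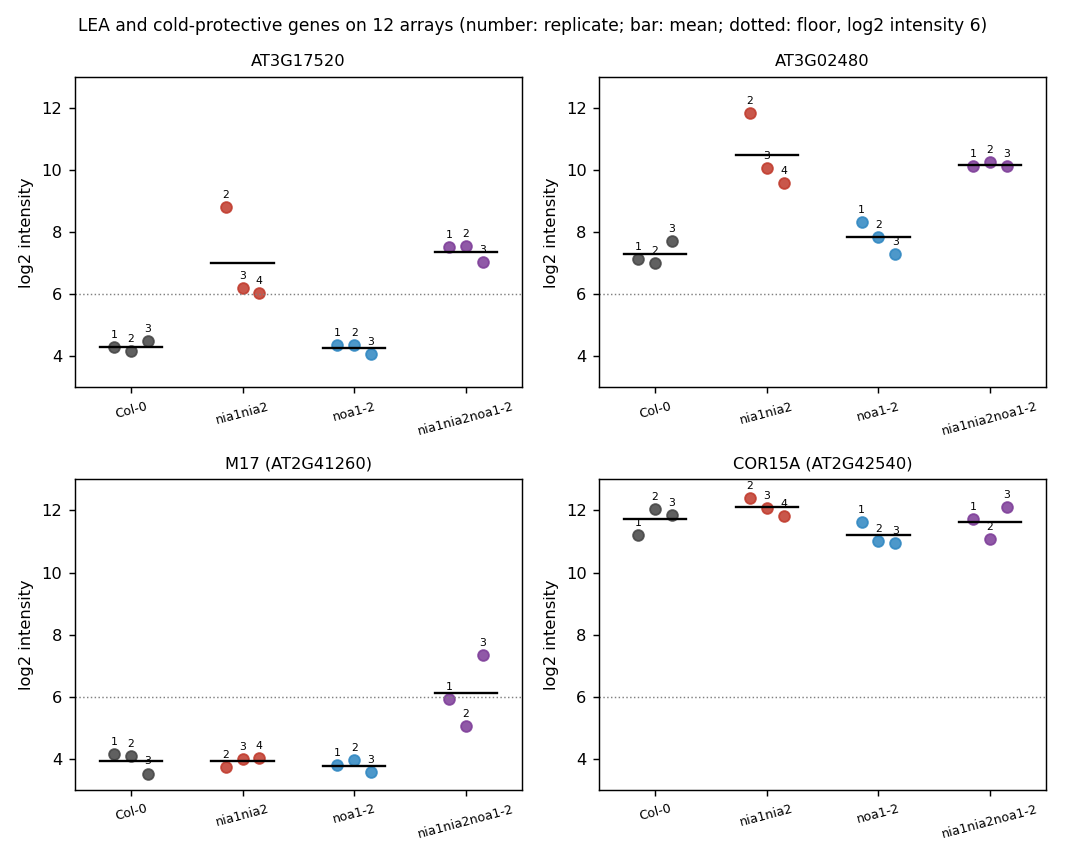
Log2 intensity (vertical axis) of the 4 genes on each of the 12 arrays, by genotype, with replicate numbers beside the points, a bar at each mean and a dotted line at the floor of 6. AT3G17520 and AT3G02480 are high on all arrays of nia1nia2 and nia1nia2noa1-2, and the COR15A arrays of the mutants overlap those of Col-0. M17 is higher on each nia1nia2noa1-2 array than on all other arrays, but over the floor only in replicate 3.

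AT3G17520 encodes a LEA_4 protein. Its log2 intensity was 4.29, 4.16 and 4.48 on the Col-0 arrays and 4.37, 4.37 and 4.06 on the noa1-2 arrays. It was 8.81, 6.21 and 6.04 in replicates 2, 3 and 4 of nia1nia2, and 7.51, 7.54 and 7.04 in nia1nia2noa1-2. Every array of the genotypes with mutated nitrate reductase genes lay above every array of Col-0 and noa1-2, and replicate 2 of nia1nia2 stood far above the other arrays of its genotype. Col-0 and noa1-2 remained under the floor of 6, so the size of the rise is not exact.

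The mean of AT3G17520 increased from 4.31 ± 0.16 in Col-0 (SD, n = 3) to 7.02 ± 1.55 in nia1nia2 and 7.36 ± 0.28 in nia1nia2noa1-2. The log2 fold change was 2.71 (SE 0.52, adjusted p = 0.0011 in limma) in nia1nia2 and 3.05 (adjusted p = 0.0012) in nia1nia2noa1-2, which corresponds to 6.54-fold and 8.30-fold. By size of rise this placed the gene 34th and 12th among the 7034 genes. In noa1-2 it differed from Col-0 by -0.04 (95% interval -1.15 to 1.07, adjusted p = 0.98 in limma). This interval rests on a spread shared by all genotypes, of which nia1nia2 had the widest, while the SD was 0.18 in noa1-2. The order of the means was noa1-2, Col-0, nia1nia2 and nia1nia2noa1-2, in which neither the first pair of neighbours nor the last, with a difference of 0.34 (adjusted p = 0.69), passed the test.

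Replicate 2 of nia1nia2 set the distance of AT3G17520 between nia1nia2 and nia1nia2noa1-2. With that array left out, the rise of AT3G17520 in nia1nia2 was 1.81 and still passed, while nia1nia2noa1-2 exceeded nia1nia2 by 1.24 (adjusted p = 0.0045 in limma) and exceeded the changes of nia1nia2 and noa1-2 added together by 1.28 (adjusted p = 0.014). The standard deviation of AT3G17520 in nia1nia2 was the 5th largest of the 7034 genes. That array was the highest of its genotype for 21.9% of all tested genes. According to the methods the arrays were normalized, so this share cannot show whether that array was raised as a whole. The origin of its high values was not tested.

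AT3G02480, the other LEA_4 gene, had a measurable level in all genotypes. Its log2 intensity was 7.15, 7.0 and 7.71 in Col-0 and 8.34, 7.85 and 7.30 in noa1-2. It was 11.85, 10.07 and 9.58 in replicates 2, 3 and 4 of nia1nia2, and 10.15, 10.25 and 10.12 in nia1nia2noa1-2. The arrays of nia1nia2 and nia1nia2noa1-2 again all lay above those of Col-0 and noa1-2, the noa1-2 arrays overlapped those of Col-0, and replicate 2 was once more the highest of nia1nia2.

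The mean of AT3G02480 was 7.29 ± 0.37 in Col-0 and 7.83 ± 0.52 in noa1-2 (SD, n = 3), and 10.50 ± 1.19 in nia1nia2 and 10.17 ± 0.07 in nia1nia2noa1-2. It rose by 3.21 on the log2 scale in nia1nia2 (SE 0.44, 9.27-fold, adjusted p = 0.00011 in limma) and by 2.89 in nia1nia2noa1-2 (7.40-fold, adjusted p = 0.00059). These were the 24th and the 17th largest rises. The difference of 0.54 in noa1-2 did not pass (95% interval -0.41 to 1.49, adjusted p = 0.49), nor did that of -0.33 between nia1nia2noa1-2 and nia1nia2 (adjusted p = 0.65). Without replicate 2, the rise in nia1nia2 was 2.54 and passed. The 3 arrays of nia1nia2noa1-2 lay within a standard deviation of 0.07, under the median of 0.12 for tested genes there, whereas the standard deviation in nia1nia2 was the 18th largest.

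**Figure D2:**
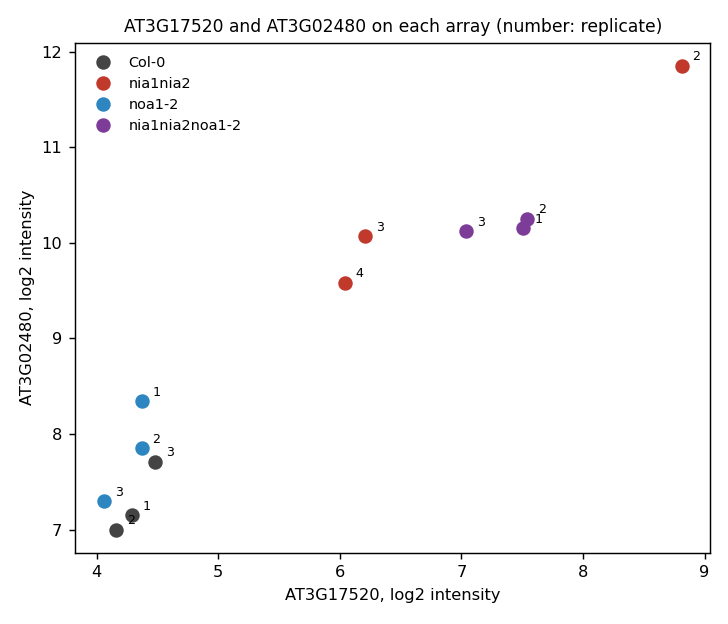
Log2 intensity of AT3G17520 (horizontal axis) against that of AT3G02480 (vertical axis) on each of the 12 arrays, coloured by genotype, with replicate numbers beside the points. The arrays form a low cloud of Col-0 and noa1-2 and a high cloud of nia1nia2 and nia1nia2noa1-2, and replicate 2 of nia1nia2 is highest for both genes.

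Of all tested genes, the one whose pattern over the 12 arrays was most like that of AT3G17520 was AT3G02480, and the reverse also held (Pearson r = 0.966). The arrays share genotypes and fall into 2 clouds, so this value is a description. AT4G20480 (r = 0.965) and AT2G42490, which encodes a copper amine oxidase (r = 0.959), came next for AT3G17520, with narrower ranges of genotype means, from 8.64 to 9.14 and from 8.99 to 9.67. For AT3G02480 the next were EIF4A-2, a translation initiation factor (r = 0.956), and AGO7, an Argonaute protein of small RNA pathways (r = 0.954). The mean of AGO7 was 5.93 in Col-0 and 6.33 in noa1-2, against 7.19 in nia1nia2 and 7.42 in nia1nia2noa1-2.

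M17 followed another pattern. M17 is a LEA gene of the AtM class that is known from maturing seeds. Its log2 intensity was 4.14, 4.07 and 3.52 in Col-0, 3.79, 3.96 and 3.56 in noa1-2, and 3.72, 4.0 and 4.03 in replicates 2, 3 and 4 of nia1nia2. In nia1nia2noa1-2 it was 5.93, 5.05 and 7.34. Each array of nia1nia2noa1-2 was above all 9 others, which overlapped each other and lay under the floor, and within nia1nia2noa1-2 only replicate 3 exceeded 6.

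The mean of M17 was 3.91 ± 0.34 in Col-0, 3.92 ± 0.17 in nia1nia2, 3.77 ± 0.20 in noa1-2 and 6.11 ± 1.16 in nia1nia2noa1-2 (SD, n = 3). It rose by 2.20 in nia1nia2noa1-2 against Col-0 (SE 0.40, 4.58-fold, adjusted p = 0.002 in limma), and differed by 0.01 in nia1nia2 (95% interval -0.86 to 0.87) and by -0.14 in noa1-2 (95% interval -1.01 to 0.73). Its standard deviation in nia1nia2noa1-2 was the 4th largest of the tested genes, and the rise against Col-0 was between 1.58 and 2.73 when single arrays were left out, lowest without replicate 3 of nia1nia2noa1-2. The spread of nia1nia2noa1-2 also widens the intervals given for nia1nia2 and noa1-2, since limma used a spread shared by all genotypes.

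The mutants were then compared with each other to ask what the combined mutation added. Against nia1nia2, nia1nia2noa1-2 raised 1 of the 4 genes, M17, by 2.19 (adjusted p = 0.005 in limma), ranked 2nd by rise in that comparison, in which 9.97% of tested genes were raised and 5.19% lowered. On the 6 arrays of these genotypes alone the same difference had an adjusted p of 0.063. Against noa1-2, nia1nia2noa1-2 raised 3 of the 4 with a background of 9.40%, namely AT3G17520 by 3.10 (adjusted p = 0.0012), AT3G02480 by 2.34 (adjusted p = 0.0026) and M17 by 2.34 (adjusted p = 0.0015). These comparisons share the nia1nia2noa1-2 arrays with each other and with the comparison against Col-0. M17 reached the floor only in nia1nia2noa1-2, and AT3G17520 only there and in nia1nia2. Their calls and ranks and the counts here are thus no more than a description.

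Departure from additivity was measured as the log2 change in nia1nia2noa1-2 minus the changes in nia1nia2 and in noa1-2. It passed for 1 of the 4 genes, M17, at 2.33 (SE 0.57, 95% interval 1.10 to 3.56, adjusted p = 0.04 in limma), ranked 3rd of the positive departures, with 2.46% of tested genes above additivity and 1.01% below it. M17 entered the test only through nia1nia2noa1-2, the genotype in which it was high, so its rank and call are a description. This call lay close to the threshold, and was lost with no filter (adjusted p = 0.06 in limma). It was lost when any of 8 of the 12 arrays was left out, among them each Col-0 and each noa1-2 array, with departures of 1.71 to 2.86 over the 12 arrays. The departures of the other members did not pass, at 0.39 (SE 0.73) for AT3G17520, -0.87 (SE 0.62) for AT3G02480 and 0.05 (SE 0.39) for COR15A.

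**Figure D3:**
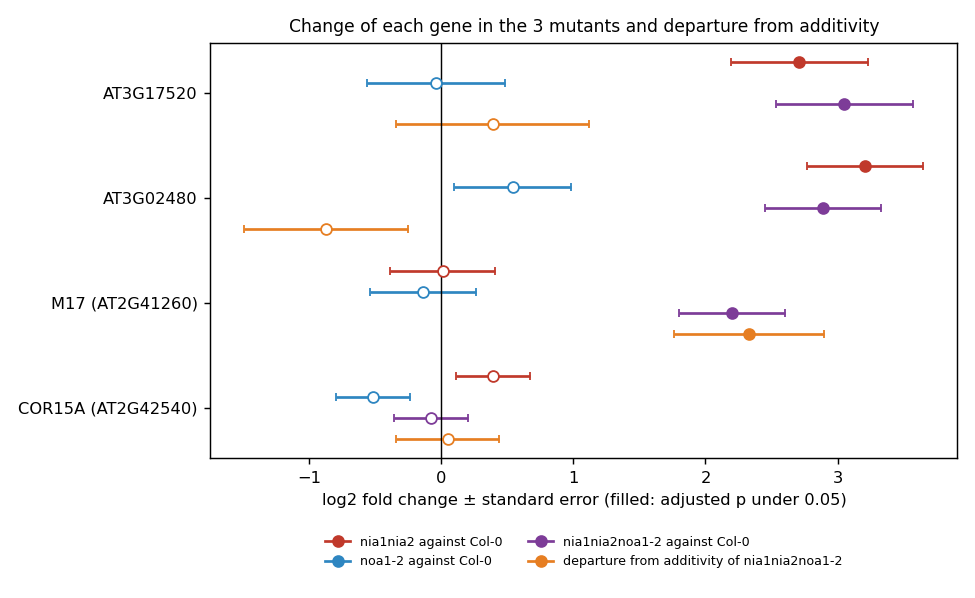
Log2 fold change with its standard error (horizontal axis) of the 4 genes in each mutant against Col-0, and departure of nia1nia2noa1-2 from additivity, with filled points where the adjusted p was under 0.05. The departure of M17 at 2.33 is close to its whole change of 2.20 in nia1nia2noa1-2, and all 4 points of COR15A are open.

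The genes most like M17 over the 12 arrays were AT1G65870 (r = 0.892), the β-glucosidase gene BGLU19 (r = 0.853) and the serine carboxypeptidase-like gene scpl25 (r = 0.834). All 3 had their highest mean in nia1nia2noa1-2, which their choice by likeness to M17 favours. In BGLU19 that mean was 6.41, against 4.65 in Col-0, 5.47 in nia1nia2 and 4.89 in noa1-2. M17 correlated with AT3G17520 at 0.485 and with AT3G02480 at 0.398 over the same arrays.

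COR15A lay far above the floor in every genotype. Its log2 intensity was 11.22, 12.06 and 11.87 in Col-0 and 12.40, 12.08 and 11.83 in replicates 2, 3 and 4 of nia1nia2. It was 11.62, 11.03 and 10.95 in noa1-2, and 11.71, 11.07 and 12.12 in nia1nia2noa1-2. The arrays of each mutant overlapped those of Col-0, while all nia1nia2 arrays lay above all noa1-2 arrays.

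In order of their means, COR15A was at 11.20 ± 0.37 in noa1-2, 11.63 ± 0.53 in nia1nia2noa1-2, 11.72 ± 0.44 in Col-0 and 12.10 ± 0.29 in nia1nia2 (SD, n = 3), and no neighbours in this order passed limma's test. Against Col-0 the difference was 0.39 in nia1nia2 (95% interval -0.21 to 0.99, adjusted p = 0.28), -0.52 in noa1-2 (95% interval -1.12 to 0.08, adjusted p = 0.28) and -0.08 in nia1nia2noa1-2 (95% interval -0.68 to 0.52, adjusted p = 0.86). The ends of the order did differ. COR15A was higher in nia1nia2 than in noa1-2 by 0.90 (SE 0.28, adjusted p = 0.019 in limma), and with AT3G17520 at 2.75 and AT3G02480 at 2.67 this made 3 of the 4 genes raised in that comparison, against 17.2% of all tested genes. AT3G17520 entered the test only through genotypes in which it was high, so this count too is a description. The COR15A call was lost without replicate 2 of nia1nia2 (adjusted p = 0.072) and without replicates 2 or 3 of noa1-2 (adjusted p = 0.067 and 0.072).

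The standard deviation of COR15A between replicates ranked 75th in Col-0, 131st in noa1-2 and 65th in nia1nia2noa1-2 among 7034 genes, but 3013th in nia1nia2, where it was 0.29 beside a median of 0.26 over all tested genes. The genes most like it over the 12 arrays were AT3G53980, of the lipid transfer protein superfamily (r = 0.865), AT2G16990 (r = 0.821) and AT4G33550 (r = 0.820). Their lowest means, like that of COR15A, were in noa1-2, at 9.55, 6.45 and 7.69, which the choice by likeness favours.

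COR15A and M17 each have a close relative beside them. By RefSeq's gene order on TAIR10.1, no protein-coding gene lies between COR15A and COR15B (AT2G42530), or between M17 and M10 (AT2G41280). COR15B also encodes a chloroplast protein of cold acclimation. Its log2 intensity was 10.31, 11.06 and 11.23 in Col-0, 9.73, 9.89 and 9.37 in nia1nia2, 10.64, 10.08 and 9.56 in noa1-2, and 9.68, 9.18 and 9.96 in nia1nia2noa1-2. Every nia1nia2 and nia1nia2noa1-2 array was under every Col-0 array.

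COR15B fell by 1.20 in nia1nia2 (SE 0.29, adjusted p = 0.005 in limma) and by 1.26 in nia1nia2noa1-2 (adjusted p = 0.0083), and the change of -0.77 in noa1-2 did not pass (adjusted p = 0.12). COR15A had not passed in the same mutants. The difference between the genes was taken within each array, a comparison chosen after the values had been seen. COR15A minus COR15B increased from 0.85 ± 0.19 in Col-0 to 2.44 ± 0.24 in nia1nia2 and 2.03 ± 0.14 in nia1nia2noa1-2 (SD, n = 3), with no overlap between arrays, and in an exact two-sided permutation test each gave p = 0.1, the smallest that 3 against 3 arrays allow. In noa1-2 it was 1.11 ± 0.25 (exact permutation p = 0.3).

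M10 is the other AtM gene. Its log2 intensity was 4.36, 3.98 and 4.02 in Col-0, 4.22, 4.53 and 4.25 in noa1-2, 6.07, 5.03 and 7.56 in replicates 2, 3 and 4 of nia1nia2, and 5.42, 6.23 and 6.22 in nia1nia2noa1-2. Unlike M17, it was thus above Col-0 on all arrays of nia1nia2, and there replicate 4 was the highest. It rose by 2.1 in nia1nia2 (SE 0.45, adjusted p = 0.0023 in limma) and by 1.84 in nia1nia2noa1-2 (adjusted p = 0.011, and 0.051 without replicate 2 of nia1nia2noa1-2). M17 minus M10 within an array went from -0.21 ± 0.30 in Col-0 to -2.30 ± 1.25 in nia1nia2 (SD, n = 3), again without overlap (exact permutation p = 0.1, the smallest possible). In nia1nia2noa1-2 the difference was 0.15 ± 1.19 (p = 0.6 in the same exact test). M17 lay under the floor in both Col-0 and nia1nia2, with a change of 0.01, so the shift in nia1nia2 restates the rise of M10. This comparison too was chosen after the values had been seen, and its p adds nothing separate. Cross-hybridization between the neighbouring genes was not tested.

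**Figure D4:**
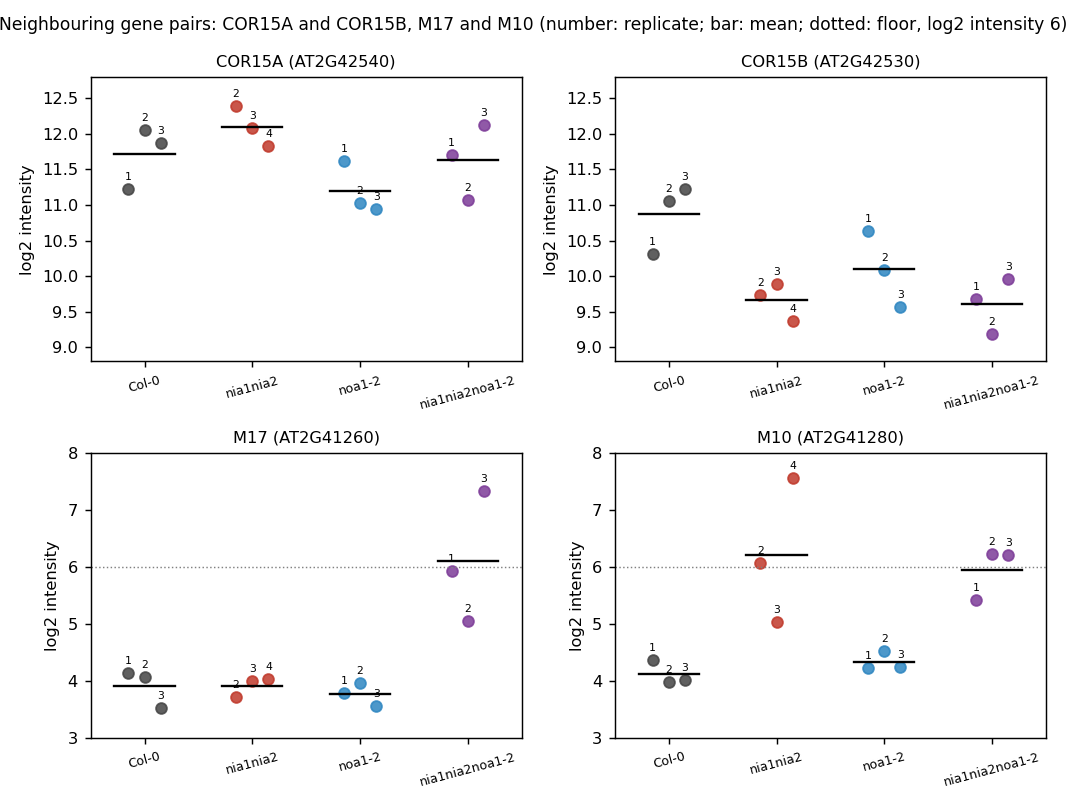
Log2 intensity (vertical axis, 1 scale per row) of COR15A and its neighbour COR15B, and of M17 and its neighbour M10, on each of the 12 arrays by genotype, with replicate numbers beside the points and a bar at each mean. COR15B is lower than in Col-0 on all arrays of nia1nia2 and nia1nia2noa1-2 while COR15A overlaps, and M10 is raised in nia1nia2 where M17 is not.

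The 4 genes were set among the LEA family as a whole, from a list of 48 genes of which 33 were named in the probe table and 14 reached the floor. In nia1nia2, 6 of the 14 were raised, 2 were lowered and 6 did not pass, with 16.4% of all tested genes raised and 26.6% lowered. In nia1nia2noa1-2, 6 were raised, 3 lowered and 5 did not pass, with 10.6% of all tested genes raised and 11.3% lowered. In noa1-2, 1 was raised, 1 lowered and 12 did not pass, which is near the 5.00% raised and 4.08% lowered over all tested genes. The median log2 fold changes of the 14 were 0.30, 0.22 and -0.12 in nia1nia2, nia1nia2noa1-2 and noa1-2, beside -0.10, -0.03 and -0.03 over all tested genes. AT3G17520, M17, M10 and LEA4-5 entered the test only through mutants in which they were high. The 14 include the 4 members, which were chosen with earlier results of these data known. AT3G17520 and AT3G02480 are among the genes raised in nia1nia2, and both with M17 among those raised in nia1nia2noa1-2. These counts and medians are thus a description that is not separate from the members. Of the LEA_4 class, 4 of 14 named genes reached the floor, which are AT3G17520, AT3G02480, COR15A and COR15B, and of 6 named dehydrins 3 did.

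Apart from AT3G17520, AT3G02480 and M10, the genes raised in nia1nia2 were LEA4-5, DI21 and LTI30. LEA4-5, of the LEA_1 class, rose from 5.59 ± 0.02 in Col-0 to 7.41 ± 0.71 in nia1nia2 (change 1.82, SE 0.28, adjusted p = 0.00027 in limma) and 7.03 ± 0.39 in nia1nia2noa1-2 (change 1.44, adjusted p = 0.003) and was 5.57 ± 0.23 in noa1-2 (SD, n = 3), so that it was high in the genotypes in which AT3G17520 and AT3G02480 were high. DI21, a drought-induced gene of the LEA_3 class, was called as raised in all 3 mutants, by 1.91 in nia1nia2 (adjusted p = 8.6e-06), 0.64 in noa1-2 (adjusted p = 0.043) and 1.16 in nia1nia2noa1-2 (adjusted p = 0.00069). The call in noa1-2 lay near the threshold and was lost when any of 8 of the 12 arrays was left out, each Col-0 and each noa1-2 array among them, with changes of 0.51 to 0.73 and adjusted p up to 0.18. DI21 also departed from additivity, but in the opposite direction to M17, at -1.39 (SE 0.26, adjusted p = 0.013).

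LTI30, a dehydrin that binds membranes and is induced by cold and ABA, rose by 1.69 in nia1nia2 (adjusted p = 0.00035 in limma), while its change of 0.37 in nia1nia2noa1-2 did not pass (adjusted p = 0.37). It was lower in nia1nia2noa1-2 than in nia1nia2 by a log2 difference of -1.32 (adjusted p = 0.0082). Among the lowered genes beside COR15B, the dehydrin gene AT1G54410 changed by -0.72 in nia1nia2 (adjusted p = 0.00081) and by -0.77 in nia1nia2noa1-2 (adjusted p = 0.0012), and AT2G46140, of the LEA_2 class, changed by -0.57 in noa1-2 (adjusted p = 0.039) and by -0.66 in nia1nia2noa1-2 (adjusted p = 0.0098). The call of AT2G46140 in noa1-2 was lost when any of 8 of the 12 arrays was left out, each Col-0 array among them (changes of -0.73 to -0.46, adjusted p up to 0.18). COR47, AT2G44060 and AT2G23120 passed in no mutant against Col-0.

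**Figure D5:**
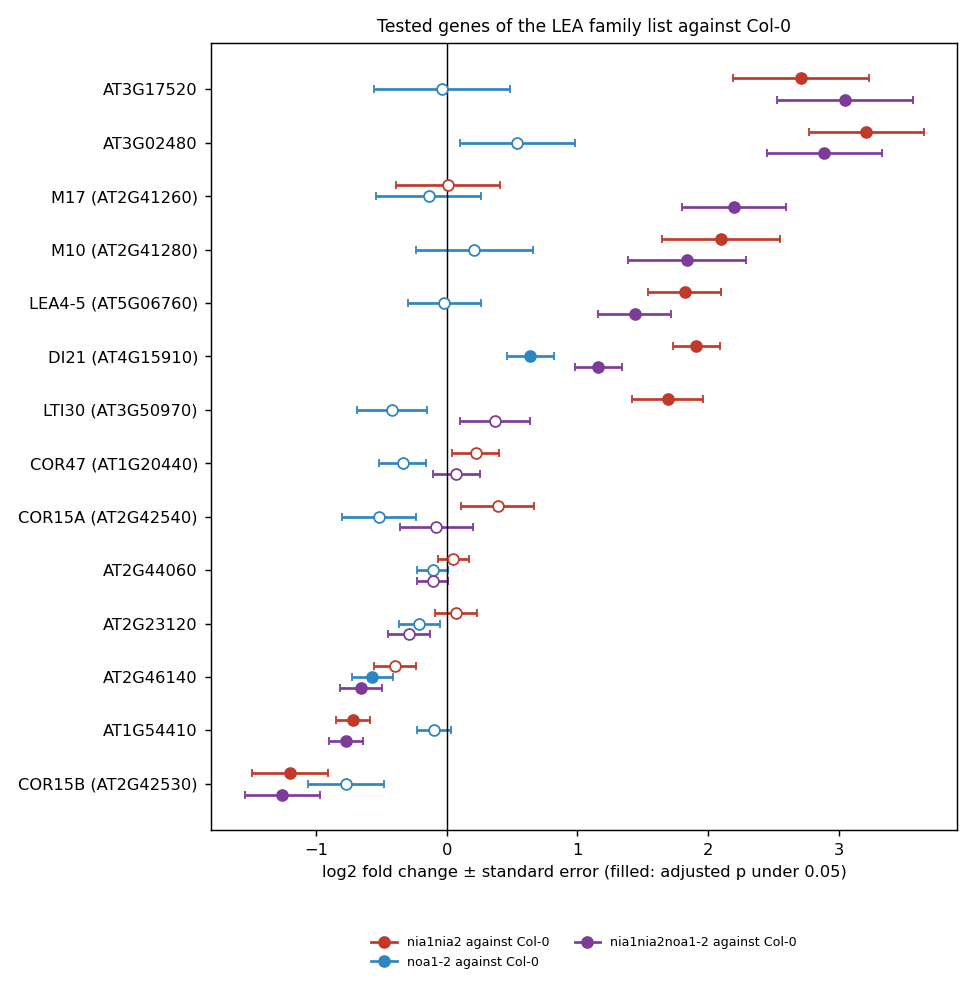
Log2 fold change against Col-0 with its standard error (horizontal axis) of the 14 tested LEA genes in the 3 mutants, ordered by the change in nia1nia2noa1-2, with filled points where the adjusted p was under 0.05. AT3G17520, AT3G02480 and M17 are at the top with changes of 3.05, 2.89 and 2.20 in nia1nia2noa1-2, and COR15B is at the bottom.

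Replicate 2 of nia1nia2 was the highest array of its genotype for 8 of the 14 LEA genes, among them AT3G17520, AT3G02480 and COR15A, where it was the highest for 21.9% of all tested genes. By count it did not stand alone in this, since replicate 2 of nia1nia2noa1-2 was also the highest of its genotype for 8 of the 14 (32.7% of all tested genes), and replicate 3 of Col-0 and replicate 1 of noa1-2 for 7 of the 14 (39.4% and 39.2%). By size it lay further out, with a median deviation of the 14 from their genotype means of 0.27. On the other arrays just named this was 0.11, 0.09 and 0.07. Over all tested genes the medians in the same order were -0.06, 0.0, 0.02 and 0.01. With replicate 2 of nia1nia2 left out, and likewise with any other single array left out, 6 LEA genes were raised in nia1nia2, and leaving out single arrays gave 5 to 6 raised in nia1nia2noa1-2.

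The other genes of cold and ABA responses were covered thinly. Of 25 genes of the cold regulon, 8 were named and all were tested, COR15A among them. In nia1nia2, 3 of the 8 were raised, namely LTI30, the zinc finger repressor gene STZ (1.78) and the temperature-induced lipocalin gene TIL (0.65), and COR15B was lowered, with 16.4% of all tested genes raised and 26.6% lowered. In noa1-2, 2 of the 8 were raised, STZ by 1.40 and AT4G33980 by 1.15, with a background of 5.00% raised and 4.08% lowered. In nia1nia2noa1-2, STZ was raised by 1.70 and COR15B lowered, with a background of 10.6% and 11.3%. STZ was at 6.09 in replicate 1 of Col-0 and at 7.82 and 7.83 in the other Col-0 arrays. Without that replicate its change was 0.82 in noa1-2 and no longer passed (adjusted p = 0.082 in limma), and was 1.20 in nia1nia2 and 1.12 in nia1nia2noa1-2, which passed. The STZ call in noa1-2 was also lost without replicates 1 or 2 of nia1nia2noa1-2 or any of the noa1-2 arrays. AT4G33980 in replicate 3 of noa1-2, at 6.76, equalled the highest Col-0 array, and its call was lost when any of 7 of the 12 arrays was left out, each Col-0 array among them (changes of 0.83 to 1.64). Of 35 ABA-responsive genes only 4 were named, AT3G02480, LEA4-5, COR15A and COR47, of which the first 2 were raised in nia1nia2 (16.4% of all tested genes) and in nia1nia2noa1-2 (10.6%), and none in noa1-2 (5.00%). Of 30 genes of core ABA signalling 1 was named and lay under the floor, and none of 14 genes of ABA metabolism was named, so the ABA pathway itself was not analysed here.

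Markers of other tissues were given beside these changes. Of 21 seed markers 2 were named, CRU2 and OLEO3, and both lay under the floor in every genotype. This includes nia1nia2noa1-2, where M17 was raised but exceeded the floor only in replicate 3. The leaf gene RCA was lower in nia1nia2 by a log2 difference of -0.40 (adjusted p = 0.0077 in limma) and did not pass in the other mutants. Of the 2 root genes named, PYK10 passed in none, and EXPA7 lay under the floor and was not tested. The mean log2 intensity of EXPA7 was 5.69 in Col-0, 5.26 in nia1nia2, 4.9 in noa1-2 and 5.02 in nia1nia2noa1-2. A difference in root content was not tested. None of 8 flower identity genes was named, and a part of flower or seed tissue in these values was not tested beyond the markers given.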

How the data were processed

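Total RNA of seedlings was hybridized to Affymetrix ATH1 arrays. According to the methods, the authors ran RMA (background correction, normalization and summarisation) with the affy package on a custom gene-based chip definition. The labels add limma, with no version. What the authors deposited is a linear intensity for each probe set on each array. The names are Affymetrix's own, and which chip definition lies behind these values is therefore not given in the sources used here. All analyses used log2 of the deposited intensity. Steps before the deposit were not repeated. Precision is limited by having 3 arrays per genotype.

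Genes were assigned with the annotation table of the array. Of its 22810 probe sets, 13513 had 1 gene, 503 had several, 8730 had no gene listed and 64 were controls. RefSeq's TAIR10.1 table, which matched 13436 of the first kind, supplied symbols and gene order. The probe set with the highest mean was kept for 147 genes that had more than 1, leaving 13355 genes. A single model (lmFit and eBayes in limma 3.58.1, R 4.3.3, with 8 residual degrees of freedom) was fitted to all 12 arrays and to the 7034 genes whose mean log2 reached 6 in 1 or more genotypes, and Benjamini-Hochberg adjustment at 0.05 covered all of these genes. It gave 7 comparisons, which set the mutants against Col-0 and against one another and measured the departure from additivity. The code was tested on simulated data, for nia1nia2noa1-2 against Col-0 only and with the same spread in all genotypes. The wider spread of nia1nia2 was not simulated. Tables and figures came from Python 3.11.15 with matplotlib 3.10.9, numpy 2.4.6 and pandas 2.3.3.

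The members and the gene lists were chosen with earlier results of these data known. The text names the members, for each of them the 3 tested genes with the highest Pearson r over the arrays, up to 4 called genes per list and mutant, and the other tested LEA genes. Alternatives were other floors for dim genes, all probe sets, the t-test of the methods, limma on 6 arrays, array weights by genotype, median centring, quantile normalization, a replicate block, an intensity trend in eBayes, averaging of probe sets, a 2-fold minimum and leaving out single arrays. The counts over the LEA family under these alternatives, the list genes refitted with single arrays left out, and the differences between neighbouring genes were added after seeing the data. Replicates shared the same log2 value, to 2 decimals, at 1.32% to 3.98% of probe sets, so none was deposited in duplicate.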

Additional observations from a re-analysis of the deposited data

Results flagged for a closer look

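M17 was flagged because its change in nia1nia2noa1-2 differed from the sum of its changes in nia1nia2 and noa1-2, by limma's interaction term. The departure was 2.33 on the log2 scale (SE 0.57, adjusted p = 0.04), and all 3 nia1nia2noa1-2 arrays (5.93, 5.05 and 7.34) lay above the 9 others, which were under the floor of 6. Its call was kept in 11 of 21 alternatives.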

How the results depend on the processing

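The rises of AT3G17520 and AT3G02480 in nia1nia2noa1-2 against Col-0 passed in all 26 alternatives, those in nia1nia2 in 25 of 26, and that of M17 in nia1nia2noa1-2 in 24 of 25. The exception was each time the methods' t-test after adjustment (adjusted p = 0.12, 0.066 and 0.10), which treats each gene's spread on its own 6 arrays. With that test 0 members passed in nia1nia2 against Col-0, against nia1nia2noa1-2 and against noa1-2, where 2, 1 and 3 had passed by limma and by the same t-test unadjusted. Over all tested genes that test called 370 raised and 527 lowered in nia1nia2 against Col-0, where limma called 1152 and 1870. It called 1 and 0 in nia1nia2noa1-2 against nia1nia2 (limma 701 and 365), and 492 and 670 in nia1nia2 against noa1-2 (limma 1211 and 1816). In nia1nia2noa1-2 against nia1nia2 the count of members was also 0 with a mean of at least 7, where M17 was no longer tested, with limma on 6 arrays and with array weights (M17, adjusted p = 0.063 and 0.068), and 1 to 2 with single arrays left out (2 without replicate 2 of nia1nia2, when AT3G17520 was added). In that comparison limma on 6 arrays called 60 of all tested genes raised and 40 lowered, and array weights 153 and 101. For the departure from additivity the count of members was 0 with no filter (M17, adjusted p = 0.06), with a mean of at least 7 and with array weights (adjusted p = 0.094), and 0 to 1 with single arrays left out. Without replicate 2 of nia1nia2 the 1 gene was AT3G17520 and not M17. The call of COR15A in nia1nia2 against noa1-2 was lost with array weights (adjusted p = 0.12) and with the methods' t-test (0.097), and its change of 0.90 is under a 2-fold minimum. The cause of these losses was not tested.

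Of the LEA family, 6 were raised and 2 lowered in nia1nia2. The methods' t-test after adjustment gave 1 raised and 1 lowered there, and array weights and a 2-fold minimum 1 lowered. Over all tested genes that t-test called 370 raised and 527 lowered, where limma called 1152 and 1870. Array weights gave 1287 lowered and a 2-fold minimum 323. With no filter 7 LEA genes were raised. The count lowered was 3 with a mean of at least 7. It was also 3 when replicate 1 of Col-0, replicate 3 of nia1nia2 or replicate 3 of noa1-2 was left out. In noa1-2, 1 was raised and 1 lowered. No filter, the adjusted t-test and a 2-fold minimum each gave 0 raised and 0 lowered, the unadjusted t-test and limma on 6 arrays 2 lowered, array weights 3 lowered, and single arrays left out 0 to 1 in both directions (DI21 the gene raised, AT2G46140 the gene lowered). In nia1nia2noa1-2 a 2-fold minimum left 1 of 3 lowered, and 149 of 794 over all tested genes.

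Values that never passed in the full fit changed sign as follows. Median centring gave 0.01 for AT3G17520 in noa1-2 and -0.11 for the departure of COR15A, and quantile normalization gave -0.01 for M17 in nia1nia2. Leaving out single arrays gave -0.12 to 0.06 for AT3G17520 in noa1-2, -0.15 to 1.24 for it in nia1nia2noa1-2 against nia1nia2 and -0.10 to 1.28 for its departure, -0.79 to 0.35 for AT3G02480 in nia1nia2noa1-2 against nia1nia2, -0.19 to 0.12 for M17 in nia1nia2, and for COR15A -0.33 to 0.20 in nia1nia2noa1-2 and -0.20 to 0.33 for its departure.

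Same-numbered arrays deviated together by correlations of -0.112 to 0.282, and arrays with different numbers by -0.35 to 0.36. Between nia1nia2noa1-2 and noa1-2 the same-numbered pairs were at 0.109, 0.209 and 0.087. Whether the numbers pair the samples is not settled by these values. With the number as a replicate block, every count of members was as before (2 in nia1nia2, 0 in noa1-2, 3 in nia1nia2noa1-2), while genes called over the whole array went from 352 to 651 raised in noa1-2 and from 748 to 1135 in nia1nia2noa1-2. The block gave -0.18 for AT3G17520 in nia1nia2noa1-2 against nia1nia2 and -0.14 for its departure, -0.04 for M17 in nia1nia2 and -0.09 for the departure of COR15A.

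Levels under the floor of 6, as of AT3G17520 in Col-0 and of M17 outside nia1nia2noa1-2, limit the size of their rises.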

Other observations

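Another 19 LEA genes named on the array stayed under the floor, with genotype means of 3.66 to 5.44. LEA18 (AT2G35300), of the LEA_1 class, had a mean of 4.05 in Col-0 and 4.16 in noa1-2, and 5.37 in nia1nia2 and 5.40 in nia1nia2noa1-2. In the fit with no filter it rose by 1.31 in nia1nia2 (SE 0.32, adjusted p = 0.009 in limma) and by 1.34 in nia1nia2noa1-2 (adjusted p = 0.017). AT3G15670, of the LEA_4 class, had means of 4.51, 5.44, 4.50 and 5.38 in Col-0, nia1nia2, noa1-2 and nia1nia2noa1-2, and its change of 0.93 in nia1nia2 did not pass in the same fit (adjusted p = 0.13).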
